A study of Mus musculus with 4 samples.

Results

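The heat shock chaperone genes described here are 10 named genes, Hspa1a, Hspa1b, Hspa8, Hsph1, Hsp90aa1, Hsp90ab1, Dnajb1, Dnaja1, Hspd1 and Hspe1. They were taken by symbol from the 32285 genes of the expression tables, and all 10 were found. They were followed in nuclei of CT26 tumours, a line made from a colon carcinoma of the BALB/c strain. CT26 cells in which Sun1 had been knocked out (Sun1_KO) or was wild type (Sun1_WT) were injected under the skin of BALB/c mice, and the tumours were collected on day 14. The genotype is that of the injected cells, and the labels give no change of genotype in the host. Before nuclei were made, tumours of both genotypes were broken up with collagenase IV and DNase I, and RNA and open chromatin were read from the same nuclei. There was 1 expression and 1 accessibility library of each genotype, so no difference between genotypes has a replicate check and no test was made. The number of mice behind a library, and whether the knockout line is 1 clone or a pool, are not stated.

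HSP70 proteins bind unfolded stretches of other proteins in a cycle driven by ATP. J proteins of the DNAJ family hand substrates to HSP70, HSP110 proteins help HSP70 release its nucleotide, HSP90 completes the folding of kinases and receptors, and HSP60 with its lid HSP10 folds proteins inside mitochondria. Some of these genes are transcribed at all times, while others are induced when the factor HSF1 binds repeated GAA units, called heat shock elements, in their promoters. Induction by heat, by lack of oxygen and by the handling of tissue is well known.

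Nuclei were put into classes from markers that include no chaperone gene. The tumour gate held 1308 Sun1_KO and 2525 Sun1_WT nuclei, the myeloid gate 318 Sun1_KO and 338 Sun1_WT nuclei, the NK-like gate 78 Sun1_KO and 92 Sun1_WT, and the T-cell-like gate 95 Sun1_KO and 66 Sun1_WT. The other 373 Sun1_KO and 324 Sun1_WT nuclei met no gate. RNA was counted as UMIs (unique molecular identifiers, 1 for each captured molecule) and is given as CPM, the UMIs of a gene scaled to 1000000 over all genes that are not mitochondrial. Summed tumour markers reached 5582 CPM in Sun1_KO and 3747 in Sun1_WT tumour nuclei, and at most 167 in any leukocyte class. Xist, the RNA of the inactive X chromosome, stood at 12.9 and 5.42 CPM in Sun1_KO and Sun1_WT tumour nuclei and at 1727 and 1855 in Sun1_KO and Sun1_WT myeloid nuclei. Median depth was similar between genotypes in tumour nuclei, at 16522 and 16479 UMIs for Sun1_KO and Sun1_WT, and lower in the leukocyte classes, from 2464 to 4927. Mitochondrial UMIs made up 11.2% of the total in Sun1_KO and 6.93% in Sun1_WT tumour nuclei, and 9.20% in Sun1_KO and 5.86% in Sun1_WT myeloid nuclei. The expression libraries shared 12 barcodes. Sun1 itself was read at 63.8 CPM in Sun1_KO tumour nuclei and at 105 in Sun1_WT ones. The edited site is not stated, so this level does not check the knockout.

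Promoters of 4 members are shown first. Those of Hspa1a and Hspa1b show how alike the pair is whose RNA and chromatin differed between classes, that of Hsph1 stands for the inducible members, and that of Hspe1 lies in the region it shares with Hspd1. They were picked as examples, and all 4 hold a heat shock element, which the windows of Dnajb1 do not. They are RefSeq windows of build GRCm38.p6, from 250 bases before to 50 after the gene start, 5′ to 3′ on the strand of the gene. Capitals mark heat shock elements, found as GAANNTTC or TTCNNGAA and joined where they overlap. Both motifs read the same on either strand.
Hspa1a, chr17:34972107-34972406, minus strand: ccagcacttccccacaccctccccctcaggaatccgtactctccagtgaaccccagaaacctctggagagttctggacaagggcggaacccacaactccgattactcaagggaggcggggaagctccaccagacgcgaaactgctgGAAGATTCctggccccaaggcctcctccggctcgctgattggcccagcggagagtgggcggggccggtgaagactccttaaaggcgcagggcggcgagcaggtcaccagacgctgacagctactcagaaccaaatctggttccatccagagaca
Hspa1b, chr17:34959189-34959488, minus strand: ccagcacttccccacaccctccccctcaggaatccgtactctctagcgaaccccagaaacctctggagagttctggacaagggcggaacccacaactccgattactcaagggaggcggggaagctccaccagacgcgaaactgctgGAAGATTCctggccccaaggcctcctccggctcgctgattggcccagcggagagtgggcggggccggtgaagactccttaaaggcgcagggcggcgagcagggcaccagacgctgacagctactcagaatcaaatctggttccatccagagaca
Hsph1, chr5:149636287-149636586, minus strand: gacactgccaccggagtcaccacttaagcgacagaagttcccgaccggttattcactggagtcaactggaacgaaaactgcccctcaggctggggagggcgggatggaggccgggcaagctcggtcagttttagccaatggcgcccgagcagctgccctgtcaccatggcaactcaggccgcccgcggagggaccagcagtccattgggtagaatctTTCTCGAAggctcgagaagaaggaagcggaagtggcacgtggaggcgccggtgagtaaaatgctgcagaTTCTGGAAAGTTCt
Hspe1, chr1:55087898-55088197, plus strand: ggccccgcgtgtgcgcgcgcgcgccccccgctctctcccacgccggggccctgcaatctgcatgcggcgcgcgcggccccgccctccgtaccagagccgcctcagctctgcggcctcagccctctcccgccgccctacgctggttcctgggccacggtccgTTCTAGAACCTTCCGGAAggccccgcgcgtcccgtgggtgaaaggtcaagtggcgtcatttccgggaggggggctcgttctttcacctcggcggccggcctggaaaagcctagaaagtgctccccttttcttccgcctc

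RefSeq windows were matched for 7 of the 10 members, namely those of Hspa1a, Hspa1b, Hsph1, Dnajb1, Dnaja1, Hspd1 and Hspe1. The windows of Hspa1a and Hspa1b carried the same letters at 296 of 300 positions (98.7%), and both held 1 element 104 bases before the start. Hsph1 held an element 33 bases before the start and another from base 37, counting the start as 1. Hspe1 held an 18-base run of elements, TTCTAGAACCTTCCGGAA, 89 bases before its start. Hspd1 lies on the other strand and has 2 starts in RefSeq. The run lies between the Hspe1 start and the second Hspd1 start, 216 bases apart, whereas the first Hspd1 start lies inside Hspe1 and its window held no element. Dnaja1 held 1 element 124 bases before its first start, and neither Dnajb1 window held one. Over all 32851 RefSeq windows, 15.1% held either motif and 0.603% held 3 units in a row (GAANNTTCNNGAA or TTCNNGAANNTTC). These matches are letters in a window and were not tested as bound sites.

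In tumour nuclei Hspa1b, Hsph1 and Dnajb1 were higher in Sun1_KO, and Hspa8, Dnaja1, Hsp90ab1, Hspd1 and Hspe1 were lower. The former are called inducible here and the latter constitutive, from what is known of these genes. These data do not define that split. Hsp90aa1, also known as inducible, was lower. Hsph1 was seen in 71.0% of Sun1_KO and 73.0% of Sun1_WT tumour nuclei. Hspd1 and Hspe1 share a run of heat shock elements, while the Dnajb1 windows held none. Hspa1b encodes the inducible HSP70. It had 1868 UMIs, or 82.7 CPM, in Sun1_KO tumour nuclei and 1994 UMIs, or 45.8 CPM, in Sun1_WT ones. The log2 ratio of Sun1_KO over Sun1_WT was 0.85, with an exact 95% interval of 0.76 to 0.94. Intervals here cover counting error only and hold nothing of the spread between nuclei or between tumours. Hsph1, the inducible HSP110, had 282 CPM in Sun1_KO and 182 in Sun1_WT (log2 ratio 0.63, interval 0.58 to 0.68). Dnajb1, the J protein that works with inducible HSP70, had 89.4 in Sun1_KO and 57.3 in Sun1_WT (0.64, interval 0.56 to 0.73). All 3 were higher in Sun1_KO by more than counting error allows.

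Hspa1a, the neighbouring copy of the inducible HSP70 gene, was almost unread in tumour nuclei of either genotype. It had 69 UMIs, or 3.05 CPM, in Sun1_KO and 67 UMIs, or 1.54 CPM, in Sun1_WT. Its log2 ratio of 0.99 had a wide interval, 0.48 to 1.5, and 27 of the 67 Sun1_WT UMIs lay in 1 nucleus. Without the 1% of nuclei highest in Hspa1a, 21 UMIs were left in Sun1_KO and 0 in Sun1_WT. Part of this signal moved with host RNA. The 43 Sun1_KO tumour nuclei that carried an Xist UMI held 45 of the 69 Hspa1a UMIs, and the 55 such Sun1_WT nuclei held 28 of the 67. In tumour nuclei without Xist, Hspa1a stood at 1.12 CPM in Sun1_KO and 0.922 in Sun1_WT, with overlapping Poisson intervals (0.715 to 1.66 in Sun1_KO and 0.656 to 1.26 in Sun1_WT). Hspa1b in the same nuclei stood at 80.2 in Sun1_KO and 45.6 in Sun1_WT. The gap in Hspa1b therefore remained without the nuclei that carried Xist, while the Hspa1a intervals overlapped. The Sun1_WT nuclei without Xist held 39 Hspa1a UMIs, and the nucleus with 27 was among them. At least 1 Hspa1a UMI was seen in 19 of 1265 Sun1_KO and 11 of 2470 Sun1_WT nuclei without Xist.

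The constitutive members ran the other way. Hspa8, the HSC70 chaperone present in all cells, had 533 CPM in Sun1_KO tumour nuclei and 774 in Sun1_WT ones, a log2 ratio of -0.54 (interval -0.57 to -0.51). Dnaja1, a J protein of the cytosol that serves it, had 144 in Sun1_KO and 225 in Sun1_WT (-0.64, interval -0.70 to -0.59). Both were lower by more than counting error allows. Of the 2 cytosolic HSP90 genes, the constitutive Hsp90ab1 had 1322 CPM in Sun1_KO and 1744 in Sun1_WT (-0.40, interval -0.42 to -0.38). The inducible Hsp90aa1 had 743 in Sun1_KO and 840 in Sun1_WT (-0.18, interval -0.20 to -0.15), the member nearest to no difference. The mitochondrial pair moved together. Hspd1, which encodes HSP60, had 491 in Sun1_KO and 669 in Sun1_WT (-0.45), and Hspe1, which encodes HSP10, had 329 in Sun1_KO and 477 in Sun1_WT (-0.53). RefSeq names 5 Hspd1 pseudogenes and 7 pseudogenes or related sequences of Hspe1, so reads of these genes could be split or borrowed by the authors' counting.

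Of the 10 members, 4 were at least 1.5-fold higher in Sun1_KO tumour nuclei and 1, Dnaja1, was at least 1.5-fold lower. The 4 were Hspa1a, Hspa1b, Hsph1 and Dnajb1, and the Hspa1a intervals overlapped without the nuclei that carried Xist. Over the 12945 genes with at least 100 summed UMIs, 20.7% were past 1.5-fold, 11.3% higher and 9.48% lower. None of the members was past 2-fold, as were 5.74% of these genes. The median of the members was -0.29, against 0.14 for all these genes. Relative to that median gene, Hspa1b stood at 0.71, Hsph1 at 0.49, Dnajb1 at 0.50, Hsp90aa1 at -0.31 and Hspa8 at -0.68. TMM scaling, which centres the median gene near 0, left 2 members higher and 4 lower, and over all genes it gave 887 higher and 1805 lower in Sun1_KO, in place of 1457 higher and 1227 lower. No scaling tried changed the sign of a member in tumour nuclei.

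**Figure D1:**
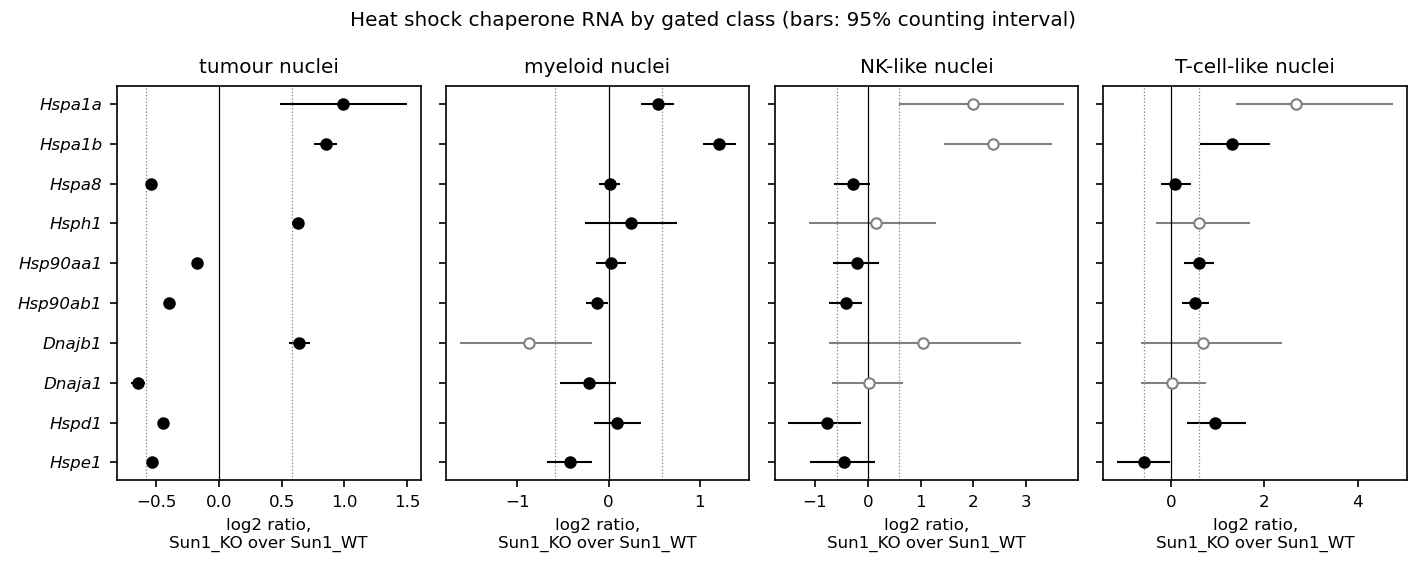
Log2 ratio of Sun1_KO over Sun1_WT for each chaperone gene (rows) in the 4 gated classes (panels), with exact 95% intervals for counting error as bars. Filled points had at least 100 summed UMIs, open grey points fewer, and dotted lines mark 1.5-fold; the horizontal scales differ. In tumour nuclei Hspa1a, Hspa1b, Hsph1 and Dnajb1 lie right of 0 and the other 6 members left of it.

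The mitochondrial share moved with the tumour result. Among tumour nuclei with 5 to 10% mitochondrial UMIs, 390 of Sun1_KO and 1768 of Sun1_WT, Hspa1b had 56.1 CPM in Sun1_KO and 44.4 in Sun1_WT (log2 ratio 0.34). Among those with 10 to 15%, 665 of Sun1_KO and 190 of Sun1_WT, it had 95.1 in Sun1_KO and 40.7 in Sun1_WT (1.22). The Sun1_KO level was thus higher in the second of these 2 strata, while the Sun1_WT level was not. Hsph1 gave log2 ratios of 0.32 and 0.80 in these 2 strata, and Dnajb1 0.32 and 0.43. Under 5%, with 56 Sun1_KO and 558 Sun1_WT nuclei, Hspa1b had 76.2 in Sun1_KO and 53.9 in Sun1_WT (0.51). Its Sun1_KO level therefore did not rise steadily with the mitochondrial share. Hsph1 gave 0.28 under 5%, and Dnajb1 -0.02 (interval -0.41 to 0.33). With all tumour nuclei of at most 10% kept, 446 of Sun1_KO and 2326 of Sun1_WT, the ratios were 0.35 for Hspa1b, 0.30 for Hsph1 and 0.25 for Dnajb1. No member with at least 100 summed UMIs was then 1.5-fold higher, as were 1194 of 12368 genes. Hspa1a fell below that minimum. At 5 to 10% it had 16 UMIs in Sun1_KO and 37 in Sun1_WT (1.08, interval 0.11 to 1.94).

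The constitutive members were lower in Sun1_KO in both the 5 to 10% and the 10 to 15% strata. Hspa8 gave -0.61 at 5 to 10% and -0.81 at 10 to 15%, Hspe1 -0.68 and -0.84, Hsp90ab1 -0.53 and -0.62, and Hspd1 -0.61 and -0.53. In the 56 Sun1_KO nuclei under 5% they stood differently, with 934 CPM of Hspa8, against 729 in the 558 such Sun1_WT nuclei (0.36). Hspe1 there had 637 in Sun1_KO and 405 in Sun1_WT (0.65). Hsp90ab1 gave 0.28 there, Hspd1 -0.03 and Dnaja1 -0.23. The lower level of Hspa8, Hspe1 and Hsp90ab1 thus did not extend to nuclei with the least mitochondrial RNA, of which Sun1_KO had few. Whether the mitochondrial share plays a part in the result beyond these strata was not tested.

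**Figure D2:**
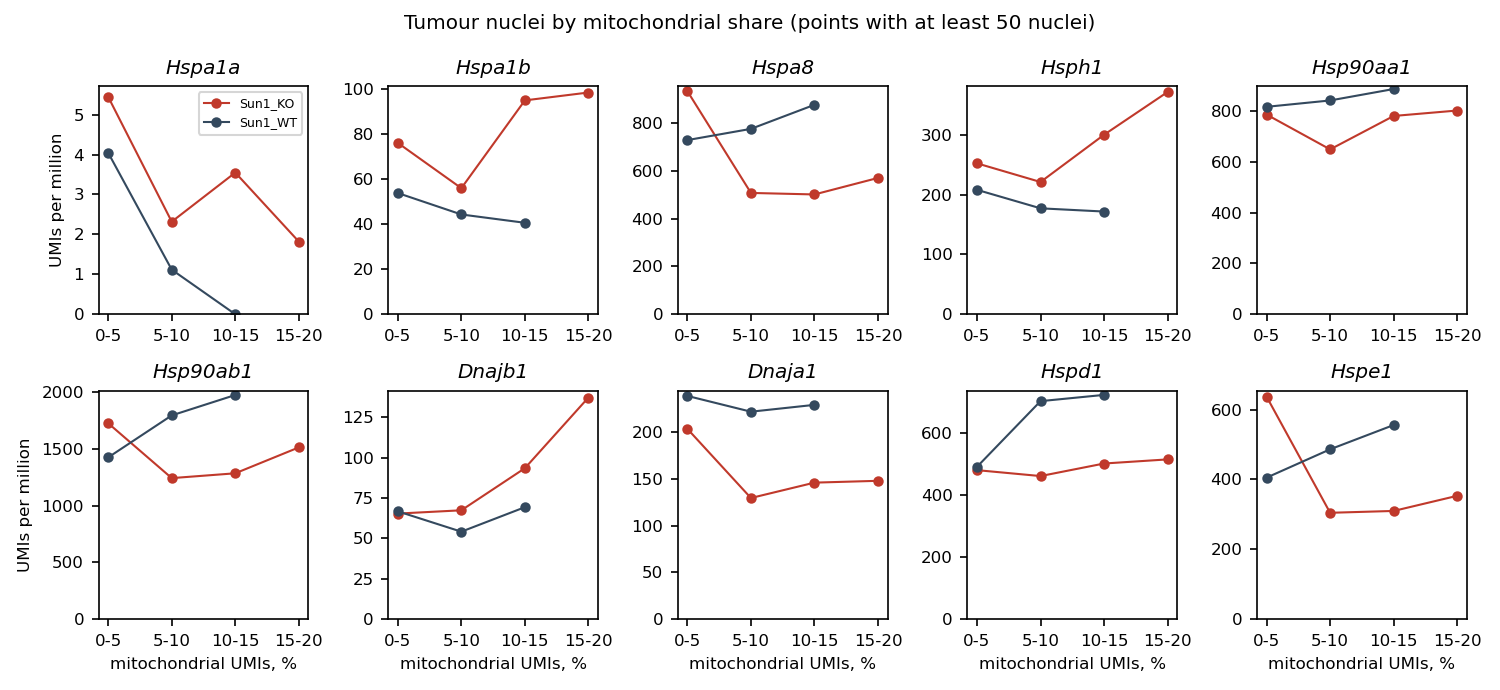
Level of each chaperone gene (CPM, vertical axes from 0) in tumour nuclei split by mitochondrial share in percent (horizontal axes), for Sun1_KO (red) and Sun1_WT (dark blue). Points with under 50 nuclei are left out, which removes the 9 Sun1_WT nuclei above 15%; Hspa1b in Sun1_KO reaches 95.1 at 10 to 15%, where Sun1_WT is at 40.7.

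Depth moved with the result for some of the members. In 3 groups of depth, divided evenly on Sun1_WT, Hspa1b gave log2 ratios of 0.54, 0.71 and 1.01 going from shallow to deep, Hsph1 0.76, 0.47 and 0.69, and Dnajb1 0.85, 0.48 and 0.68. Hspa8 gave -0.57, -0.57 and -0.52, and Hspe1 -0.52, -0.57 and -0.52. Hspd1 gave 0.04 in the shallowest, with 359 CPM in Sun1_KO and 349 in Sun1_WT, and -0.60 in the deepest, with 522 in Sun1_KO and 793 in Sun1_WT. Hsp90aa1 changed sign, with 0.13 (interval 0.06 to 0.20) in the shallowest, -0.07 in the middle and -0.31 in the deepest, and Hsp90ab1 gave -0.15, -0.29 and -0.51. Hspa1a gave -0.27, 0.49 and 3.18, the last from 36 UMIs in Sun1_KO and 7 in Sun1_WT. What part depth plays was not tested.

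In myeloid nuclei both copies of the inducible HSP70 gene were read at high levels, and Hspa1b was the only member past 1.5-fold among those with at least 100 summed UMIs. It had 773 UMIs, or 496 CPM, in Sun1_KO and 390 UMIs, or 214 CPM, in Sun1_WT (log2 ratio 1.21, interval 1.03 to 1.39). Hspa1a had 566 UMIs, or 363 CPM, in Sun1_KO and 456 UMIs, or 251 CPM, in Sun1_WT (0.54, interval 0.36 to 0.72). Of the 9 members that reached the minimum, 1 was at least 1.5-fold higher and 0 lower, beside 11% of 5990 genes past this fold, 5.81% higher and 5.21% lower. Hspa1b was also past 2-fold, as were 1.87% of genes. Myeloid markers moved beside it. Summed over 12 genes they stood at 13427 CPM in Sun1_KO and 19066 in Sun1_WT, with Lyz2, which encodes lysozyme, at 1948 in Sun1_KO and 4231 in Sun1_WT. The 5 dendritic cell markers were few but also differed, at 41.1 in Sun1_KO and 15.4 in Sun1_WT, and Ptprc, Dock2, Ikzf1 and Coro1a, read in all leukocytes, summed to 3167 in Sun1_KO and 3095 in Sun1_WT. Their part in the result was not tested. The copies are near-identical, so how the authors' counting split reads between them is uncertain. Unlike in tumour nuclei, the ratio of Hspa1b was as large in myeloid nuclei of low mitochondrial share, at 1.49 under 5%, 1.28 from 5 to 10% and 1.69 from 10 to 15%, where Sun1_WT had 19 nuclei.

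The other myeloid values were small. Hspe1 had 143 CPM in Sun1_KO and 192 in Sun1_WT (-0.43, interval -0.68 to -0.18). Hspa8 was level between the libraries, with 793 in Sun1_KO and 788 in Sun1_WT, and its sign changed with the scaling. Hsph1, Hsp90aa1, Hsp90ab1, Dnaja1 and Hspd1 lay between -0.22 and 0.24. Dnajb1, at 25 UMIs in Sun1_KO and 54 in Sun1_WT, was below the minimum, with a log2 ratio of -0.87 and an interval of -1.63 to -0.18.

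NK-like and T-cell-like nuclei were few, and most members fell near or below the minimum there. In NK-like nuclei 5 members reached it, and 0 were at least 1.5-fold higher and 1 lower, beside 27.2% of 1158 genes past this fold (13.2% higher, 14% lower). At 2-fold 0 members were past, beside 6.22% of genes. The lower one was Hspd1, with 25 UMIs in Sun1_KO and 77 in Sun1_WT (-0.77, interval -1.5 to -0.12). Hspa1b, below the minimum, had 36 UMIs in Sun1_KO and 12 in Sun1_WT, of which 11 Sun1_KO UMIs came from 1 nucleus. In T-cell-like nuclei 6 members reached it, of which 3 were higher and 1 lower, beside 14.8% of 1305 genes (7.74% higher, 7.05% lower), and at 2-fold 1, beside 3.3%. Hspa1b had 85 UMIs in Sun1_KO and 20 in Sun1_WT (1.31, interval 0.62 to 2.11).

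In T-cell-like nuclei some members had ratios of the other sign from those in tumour nuclei, a difference that was not tested. Hspd1 had 263 CPM in Sun1_KO and 135 in Sun1_WT (0.94, interval 0.35 to 1.61). Hsp90aa1 had 793 in Sun1_KO and 527 in Sun1_WT (0.59, interval 0.27 to 0.92). Both were higher in Sun1_KO, whereas Hspe1, as in tumour nuclei, was lower, with 160 in Sun1_KO and 242 in Sun1_WT (-0.60, interval -1.16 to -0.03). Hspa8 gave 0.09 (interval -0.23 to 0.42). Hspa1a had 48 UMIs in Sun1_KO and 4 in Sun1_WT, and 10 of the 48 were in 1 nucleus. In the 58 Sun1_KO and 65 Sun1_WT T-cell-like nuclei with at most 10% mitochondrial UMIs, 3 members reached the minimum and 0 were past 1.5-fold. Of 788 genes in these nuclei 53 were higher and 99 lower by this fold, and Hsp90aa1 stood at 0.18.

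**Figure D3:**
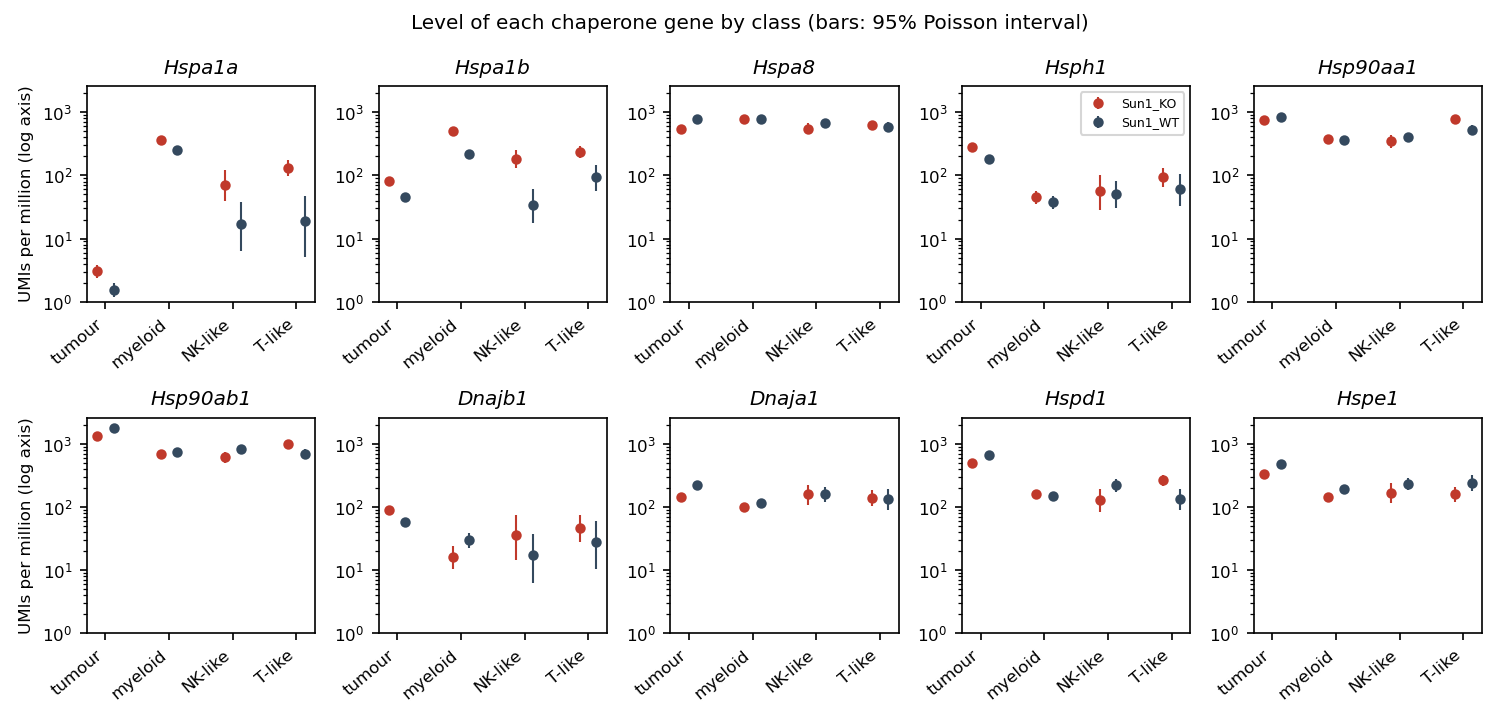
Level of each chaperone gene (CPM, log axes) in the 4 gated classes, Sun1_KO in red to the left of Sun1_WT in dark blue, with exact 95% Poisson intervals. Hspa1a lies at 3.05 in Sun1_KO and 1.54 in Sun1_WT tumour nuclei and at 363 in Sun1_KO and 251 in Sun1_WT myeloid nuclei, while Hsph1 and Dnajb1 are lower in myeloid than in tumour nuclei. A panel compares 1 gene between classes; levels of different genes are not scaled for length.

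Set against myeloid nuclei of the same library, tumour nuclei had more of most members. Of the 10 members, 6 in Sun1_KO and 7 in Sun1_WT were at least 2-fold apart between these classes, as were 41.2% of all genes with enough UMIs in Sun1_KO and 42% in Sun1_WT. Hsph1 was higher in tumour nuclei by 2.64 on the log2 scale in Sun1_KO and 2.26 in Sun1_WT. Hspd1 was higher by 1.64 in Sun1_KO and 2.18 in Sun1_WT, and Hspe1 by 1.20 in Sun1_KO and 1.31 in Sun1_WT. Dnajb1 was higher by 2.45 in Sun1_KO and 0.94 in Sun1_WT. Hspa8 was lower in tumour nuclei in Sun1_KO, at -0.57 (interval -0.66 to -0.49), and near level in Sun1_WT, at -0.03 (-0.10 to 0.05). The inducible HSP70 pair was far lower in tumour nuclei, Hspa1b at -2.59 in Sun1_KO and -2.23 in Sun1_WT and Hspa1a at -6.88 in Sun1_KO and -7.34 in Sun1_WT.

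Hspa1a and Hspa1b, whose annotated lengths of 2798 and 2810 bases are nearly equal, were read in different proportions in tumour and host nuclei. Hspa1a made up 3.56% of the UMIs of the pair in Sun1_KO tumour nuclei (exact binomial interval 2.78 to 4.49) and 3.25% in Sun1_WT ones (2.53 to 4.11). In myeloid nuclei it made up 42.3% in Sun1_KO (39.6 to 45) and 53.9% in Sun1_WT (50.5 to 57.3). The shares in T-cell-like nuclei were 36.1% in Sun1_KO and 16.7% in Sun1_WT, and in NK-like nuclei 28.0% in Sun1_KO and 33.3% in Sun1_WT, from 18 to 133 UMIs. At least 1 Hspa1a UMI was seen in 2.60% of Sun1_KO and 0.673% of Sun1_WT tumour nuclei, against 41.2% of Sun1_KO and 38.5% of Sun1_WT myeloid nuclei, which are shallower. At 1000 UMIs a nucleus the shares were 0.541% in Sun1_KO and 0.119% in Sun1_WT tumour nuclei, and 20.4% in Sun1_KO and 18.0% in Sun1_WT myeloid nuclei.

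Open chromatin divided the pair in the same way in both genotypes. Accessibility was summed over merged peaks within 1 kb of the gene start, as CPM of all peak counts of the class. At the Hspa1a start it was 1.80 CPM in Sun1_KO tumour nuclei and 71.0 in Sun1_KO myeloid nuclei, a log2 ratio of -5.30, and in Sun1_WT 1.37 in tumour and 68.2 in myeloid nuclei (-5.63). At the Hspa1b start it was 23.9 in tumour and 54.0 in myeloid nuclei of Sun1_KO (-1.18), and 28.5 in tumour and 55.0 in myeloid nuclei of Sun1_WT (-0.95). The Hspa1a start thus gave few counts in tumour nuclei and many in myeloid ones, although the 2 starts lie only 12918 bases apart. A count was seen at the Hspa1a start in 7.26% of Sun1_KO and 5.11% of Sun1_WT tumour nuclei. In myeloid nuclei this was 56.0% in Sun1_KO and 58.0% in Sun1_WT. The windows of the 2 copies nearly match. Whether the placement of reads between them, or the DNA of the locus in CT26, plays a part was not tested.

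**Figure D4:**
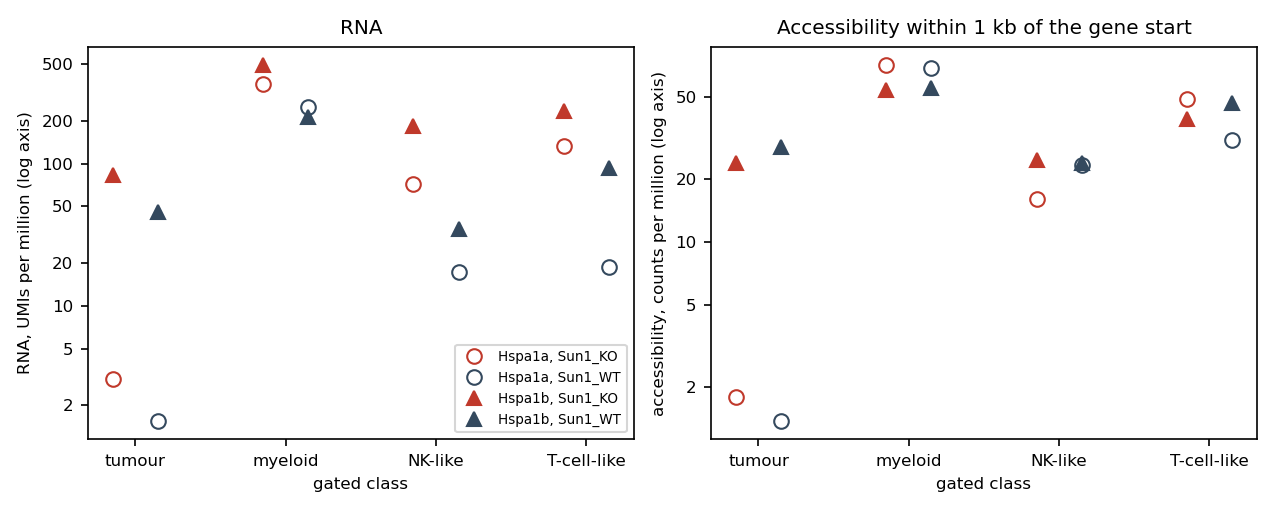
RNA (left, CPM) and accessibility within 1 kb of the gene start (right, CPM), both on log axes, of Hspa1a (open circles) and Hspa1b (filled triangles) in the 4 gated classes, Sun1_KO in red and Sun1_WT in dark blue. In tumour nuclei Hspa1a lies far below Hspa1b in both readouts, at 1.80 accessibility CPM in Sun1_KO and 1.37 in Sun1_WT, against 23.9 in Sun1_KO and 28.5 in Sun1_WT for Hspa1b; in myeloid nuclei the 2 genes lie close together.

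Between genotypes, accessibility in tumour nuclei differed little at the starts of the 7 members with a RefSeq window. None of the 7 was 1.5-fold apart, as were 9.97% of 14024 genes, and none was in myeloid nuclei, as were 4.05% of 11073 genes. Hspd1 and Hspe1 share 1 region, and with so few regions a count of 0 is close to these shares. Hspa8, Hsp90aa1 and Hsp90ab1 had no such window and are not covered. Hsph1 had 105 CPM in Sun1_KO and 108 in Sun1_WT (log2 ratio -0.04). Dnajb1 had 85.9 in Sun1_KO and 87.1 in Sun1_WT (-0.02), Dnaja1 61.7 in Sun1_KO and 63.7 in Sun1_WT (-0.05), and the region shared by Hspd1 and Hspe1 had 12496 counts in Sun1_KO and 20445 in Sun1_WT (-0.09). At the Hspa1b start it was lower in Sun1_KO, with 23.9 in Sun1_KO against 28.5 in Sun1_WT (-0.25, interval -0.32 to -0.19), where the RNA was higher, and a count was seen in 63.6% of Sun1_KO and 61.2% of Sun1_WT nuclei. The start of Hspa1a gave 0.39 from 225 counts in Sun1_KO and 264 in Sun1_WT. Intervals of accessibility are too narrow, since most counts come in pairs from 1 fragment. Peaks were called in each library on its own, so a region called in 1 library has counts in that library only.

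Hspa1b, Dnajb1 and Hsph1 were concentrated in fewer tumour nuclei than Hspa8, Hsp90ab1, Hsp90aa1 and Dnaja1. The 5% of tumour nuclei highest in a gene held 49.6% of the Hspa1b UMIs in Sun1_KO and 42.3% in Sun1_WT. For Dnajb1 they held 47.1% in Sun1_KO and 39.6% in Sun1_WT and for Hsph1 35.8% in Sun1_KO and 30.4% in Sun1_WT. Genes with fewer UMIs are held by fewer nuclei through counting alone, and the part of counting here was not tested. For Hspa8 the top 5% held 21.6% in Sun1_KO and 16.7% in Sun1_WT, and for Hsp90ab1 19.4% in Sun1_KO and 17.8% in Sun1_WT. For the inducible Hsp90aa1 they held 21.3% in Sun1_KO and 18.2% in Sun1_WT, and for Dnaja1 23.5% in Sun1_KO and 20.4% in Sun1_WT. Dnaja1 had 3249 UMIs in Sun1_KO and 9794 in Sun1_WT, beside 6377 in Sun1_KO and 7939 in Sun1_WT for Hsph1. At least 1 Hspa1b UMI was seen in 34.9% of Sun1_KO and 32.7% of Sun1_WT tumour nuclei, and after thinning to 1000 UMIs in 6.18% of Sun1_KO and 3.86% of Sun1_WT ones. At least 2 of the 4 genes Hspa1a, Hspa1b, Hsph1 and Dnajb1 were seen together in 50.9% of Sun1_KO and 48.9% of Sun1_WT tumour nuclei. After thinning this was 5.95% (exact interval 4.72 to 7.38) in Sun1_KO and 2.83% (2.22 to 3.55) in Sun1_WT. In myeloid nuclei the thinned shares were 14.2% in Sun1_KO and 8.38% in Sun1_WT.

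Across tumour nuclei of at least 5000 UMIs, 1272 of Sun1_KO and 2451 of Sun1_WT, correlations among the members were weak to moderate. The Pearson correlation of Hsph1 with Dnajb1 was 0.59 in Sun1_KO and 0.43 in Sun1_WT. That of Hsp90ab1 with Hspd1 was 0.54 in Sun1_KO and 0.57 in Sun1_WT, and that of Hspd1 with Hspe1 0.46 in Sun1_KO and 0.50 in Sun1_WT. The 6 pairs among Hspa1b, Hsph1, Dnajb1 and Hsp90aa1 had a median of 0.41 in Sun1_KO and 0.31 in Sun1_WT, beside 0.24 in Sun1_KO and 0.20 in Sun1_WT for the 20 pairs between these genes and the constitutive ones. The 10 pairs among the constitutive members had a median of 0.24 in Sun1_KO, level with the pairs between the groups, and 0.27 in Sun1_WT. The nuclei of a library share its depth and preparation, and these values describe them without a test.

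The level of the inducible members was tied to other programmes of the tumour nuclei. Within each library the 20% of tumour nuclei highest in 17 immediate early genes (Fos, Jun, Egr1 and others, which respond within minutes to growth signals and to handling) were set against the rest. Dnajb1 was at 269 CPM in these nuclei and 52.2 in the rest of Sun1_KO (log2 ratio 2.36), and at 126 in these and 40.7 in the rest of Sun1_WT (1.63). Hspa1b gave 1.68 in Sun1_KO and 1.09 in Sun1_WT, Hsph1 1.62 in Sun1_KO and 1.05 in Sun1_WT, and Hsp90aa1 0.84 in Sun1_KO and 0.38 in Sun1_WT. The mitochondrial Hspd1 was nearly level, at 0.11 in Sun1_KO and 0.04 in Sun1_WT. The median of the members was 0.82 in Sun1_KO and 0.46 in Sun1_WT, against -0.04 for all genes in each.

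A list of 8 hypoxia genes (Car9, Slc2a1, Vegfa and others) gave a narrower set. In the 20% of nuclei highest in it, Dnajb1 gave 1.54 in Sun1_KO and 0.93 in Sun1_WT, and Hsph1 1.17 in Sun1_KO and 0.54 in Sun1_WT. Hsp90ab1 was lower in these nuclei, at -0.22 in Sun1_KO and -0.35 in Sun1_WT. Nuclei highest in Dcn, which encodes the matrix proteoglycan decorin, had less of most members. Hspd1 was at 235 CPM in them and 536 in the rest of Sun1_KO (-1.19), and gave -1.56 in Sun1_WT. Hspe1 gave -0.99 in Sun1_KO and -0.81 in Sun1_WT. Nuclei highest in Dcn were also shallower, with medians of 12323 UMIs in Sun1_KO and 11110 in Sun1_WT. In the S phase and G2/M lists the medians of the members lay between -0.09 and 0.14.

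**Figure D5:**
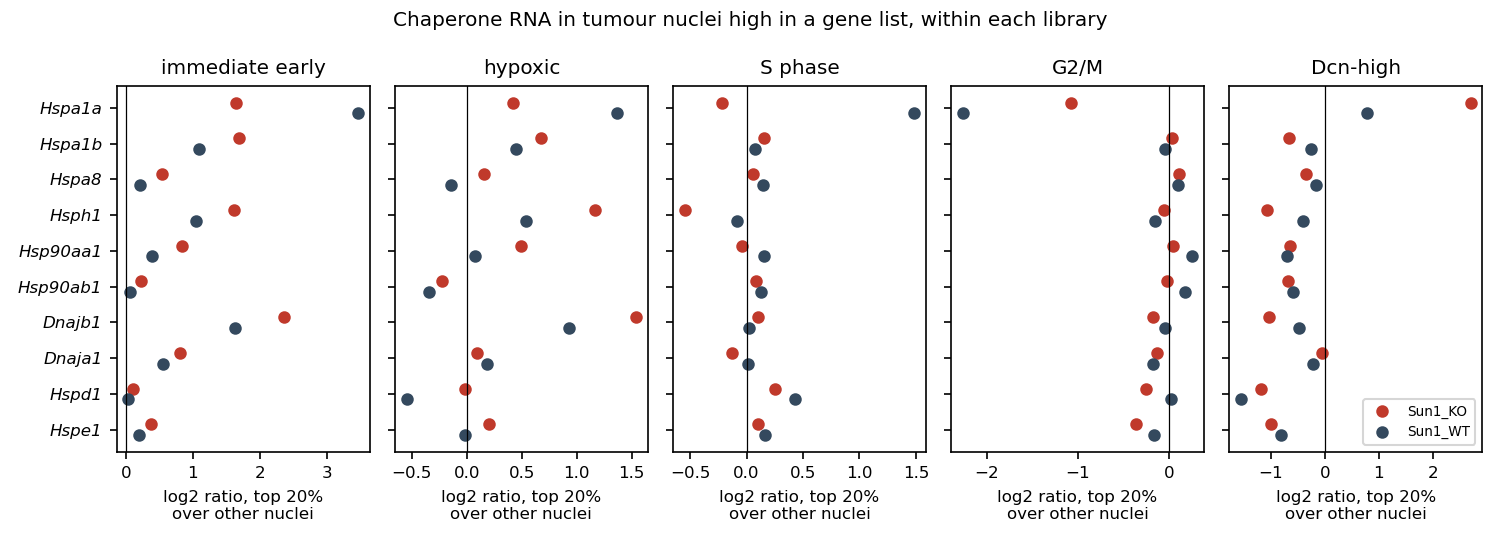
Log2 ratio of each chaperone gene in the 20% of tumour nuclei highest in a gene list (5 panels) over the other tumour nuclei of the same library, Sun1_KO in red and Sun1_WT in dark blue; the horizontal scales differ. Dnajb1, Hspa1b and Hsph1 lie furthest right among the well-read genes in the immediate early panel (2.36, 1.68 and 1.62 in Sun1_KO), and Hspd1 furthest left in the Dcn-high panel (-1.19 in Sun1_KO and -1.56 in Sun1_WT).

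Myeloid nuclei were split at the median of the complement genes C1qa, C1qb and C1qc, which mark tissue macrophages. Hspa1a had 323 CPM in the C1q-high and 439 in the C1q-low nuclei of Sun1_KO (log2 ratio -0.44), and 213 in the C1q-high and 318 in the C1q-low nuclei of Sun1_WT (-0.58). Hspa1b gave -0.51 in Sun1_KO and -0.39 in Sun1_WT, and Hsp90ab1 0.40 in Sun1_KO and 0.29 in Sun1_WT. C1q-high nuclei were the deeper ones, with medians of 7111 and 6916 UMIs in Sun1_KO and Sun1_WT, against 2904 and 3221 in Sun1_KO and Sun1_WT for C1q-low nuclei.

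Of the other genes of the pathway, from lists of related chaperones and co-chaperones, most were within 1.5-fold between the genotypes in tumour nuclei. Their counts are to be read against the 11.3% of all genes that were higher, the 9.48% that were lower and the median of 0.14. None of the 8 subunits of TRiC, the cytosolic chaperonin for actin and tubulin, was above 0, their median was -0.29, and 1 was at least 1.5-fold lower. Of 16 HSP90 co-chaperones 0 were higher and 3 lower by this fold (median -0.15), and of 14 chaperones of the endoplasmic reticulum 0 were higher and 2 lower (-0.28). Of 10 mitochondrial protein quality genes 0 were higher and 1 lower (-0.16). The 4 genes of HSF factors and their binding protein had a median of 0.27, with none past the fold. Of 7 nucleotide exchange and BAG genes, 0 were higher and 1 lower (0.14). Of 9 small heat shock proteins, 4 reached the minimum and 2 of these were lower. Of the 7 other J proteins and 4 other HSP70 and HSP110 genes that reached it, none was past the fold. Among 17 immediate early genes, 16 reached the minimum, with 3 higher, 2 lower and a median of -0.04.

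The extremes of these lists in tumour nuclei were Fos and Fosb at the top and Cryab and Grpel1 at the bottom. Fos, an immediate early transcription factor, had 16.6 CPM in Sun1_KO and 7.74 in Sun1_WT (1.10), and Fosb 31.6 in Sun1_KO and 16.0 in Sun1_WT (0.98). Cryab, a small heat shock protein, had 8.59 in Sun1_KO and 24.1 in Sun1_WT (-1.49). Grpel1, the nucleotide exchange factor of mitochondrial HSP70, had 21.1 in Sun1_KO and 43.2 in Sun1_WT (-1.04). In myeloid nuclei the highest was Bag3, an HSP70 co-chaperone, with 53.3 in Sun1_KO and 28.0 in Sun1_WT (0.92), and the lowest was Ier3 (-0.69), an immediate early gene. Bag3 had 105 CPM in Sun1_KO and 70.2 in Sun1_WT tumour nuclei (0.58). The immediate early list had a median of -0.20 in myeloid nuclei, where Hspa1b was higher.

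The authors' deposited table of differential genes listed 9 of the members, all but Hspa1a. Its direction is that of Sun1_KO over Sun1_WT, since all 427 of its genes with at least 2-fold and enough UMIs had the sign of the summed counts. The authors' deposited table gave log2 fold changes of 0.97 for Hsph1, 1.00 for Dnajb1 and 0.95 for Hspa1b, and of -0.16 for Hspa8, -0.22 for Dnaja1 and -0.23 for Hspe1. In the authors' deposited table Hsp90aa1 was higher, at 0.34, whereas tumour nuclei gave -0.18 here, and Hsp90ab1 stood at 0.04 with an adjusted p of 0.273 from the authors' DESeq2 Wald test. Values of the authors' deposited table exceeded the tumour ratios by a median of 0.43 over 10130 genes, and by 0.10 (Hspa1b) to 0.51 (Hsp90aa1) among the members. With 1 library of each genotype, p-values of the authors' deposited table hold no spread between tumours.

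Over the 8 sums of 4 classes and 2 genotypes, the genes whose levels followed the mean of the standardised members most closely were Mthfd2, Sun1, Iars, Ndufa2 and Tmem176a. Pearson correlations ran from 0.95 to 0.93 over 8 sums, among 4540 genes with enough UMIs in every class. The members themselves ran from -0.63 for Hspa1a to 0.97 for Hsp90ab1. These sums share libraries and are mostly set by the contrast of tumour and leukocyte nuclei.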

How the data were processed

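RNA and open chromatin were measured in the nuclei of CT26 tumours with a 10x multiome kit, per the labels' protocols. The authors deposited counts of UMIs per gene and nucleus and counts per peak and nucleus; the genome build was mm10. Per the submitters' processing notes, the tools were FastQC, Seurat, Signac, Cell Ranger and Cell Ranger ARC, with versions not given in the sources used here. In the authors' deposited table, baseMean is a signal, per the file headers, namely a mean of scaled counts, and the fold changes are log2 values by DESeq2, per the file headers. Its Wald statistic is a score, and its p-values and adjusted p-values come from the same test, per the file headers.

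The members, lists, filters and splits were chosen with earlier results of these data known. Kept were nuclei with 500 or more UMIs, 300 or more genes and no more than 20% mitochondrial UMIs, 2172 of 2404 Sun1_KO and 3345 of 3455 Sun1_WT nuclei, with no doublet caller. Gates used marker UMIs per 10000 and were set after the marker sums had been seen. Tumour nuclei had at least 5 of the tumour markers and under 2 of Ptprc, Dock2, Ikzf1 and Coro1a. Of the tumour nuclei, 25 in Sun1_KO and 154 in Sun1_WT lay within 2-fold above that threshold. Myeloid nuclei had at least 20, and NK-like and T-cell-like nuclei at least 5, of their own markers. Counts were summed by class and library over the total without mitochondrial genes, and log2 ratios used a pseudocount of 0.5 for genes with at least 100 summed UMIs. Intervals were at 95%, exact Poisson (levels), exact binomial (shares) or exact conditional binomial (ratios). Peaks overlapping by at least 1 bp were merged and taken by class through the barcode. Named were all members, the 2 highest and 2 lowest related genes in tumour nuclei, the highest and lowest in myeloid nuclei, and the 5 genes most like the members. Python 3.11.15, numpy 2.4.6, scipy 1.17.1 and matplotlib 3.10.9 were used, with TMM factors from edgeR 4.0.16 in R 4.3.3. The ratios and their intervals were also run on Poisson counts simulated with known folds. Such counts lack the spread between nuclei and tumours, so this run checks the calculation only.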

Additional observations from a re-analysis of the deposited data

Results flagged for a closer look

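The following members had log2 ratios of Sun1_KO over Sun1_WT of opposite sign in different classes, with 95% counting intervals that exclude 0 in each. The difference between classes was not tested, since each genotype had 1 library. Hsp90aa1 was at 0.59 in T-cell-like nuclei and -0.18 in tumour nuclei. Hsp90ab1 was at 0.51 in T-cell-like nuclei, with 984 CPM in Sun1_KO and 690 in Sun1_WT, and at -0.40 in tumour nuclei. Hspd1 was at 0.94 in T-cell-like nuclei and -0.45 in tumour nuclei. Dnajb1 was at -0.87 in myeloid nuclei, from 25 UMIs in Sun1_KO and 54 in Sun1_WT, and at 0.64 in tumour nuclei.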

How the results depend on the processing

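No paired analysis was possible because each genotype had 1 library. No member changed sign in tumour nuclei under the settings tried over all gated tumour nuclei, and Hspa1a there rests on few UMIs. The median of the members in tumour nuclei was -0.29, and -0.36 with mitochondrial genes in the total, -0.43 under TMM, -0.43 by median ratios, -0.40 with at most 10% mitochondrial UMIs, -0.39 without nuclei with an Xist UMI (chosen after seeing the data) and -0.21 after thinning. Members at least 1.5-fold higher there numbered 4, but 2 with mitochondrial genes in the total, 2 under TMM and 2 by median ratios. Of all 12945 genes 1457 were higher, but 1116 with mitochondrial genes in the total, 887 under TMM and 894 by median ratios. With at most 10% mitochondrial UMIs 0 members with enough UMIs were higher, beside 1194 of 12368 genes. Members lower numbered 1, but 3 with mitochondrial genes in the total, 4 under TMM, 3 by median ratios and 2 without the top 1% of nuclei. Of the 12945 genes 1227 were lower, but 1499 with mitochondrial genes in the total, 1805 under TMM and 1801 by median ratios. At 2-fold both numbers were 0, beside 5.74% of genes in either direction. In myeloid nuclei 2 members were higher with the stricter gate or after thinning, beside 348 of 5868 and 3598 of 13893 genes. There 1 member was lower with a minimum of 20 UMIs or none, beside 1026 of 10493 and 3528 of 17490 genes. In NK-like nuclei 3 were lower with TMM and 0 with the stricter gate, after thinning or at 2-fold. Genes lower there were 215 of 1158 with TMM, 155 of 1077 with the stricter gate and 3319 of 11156 after thinning. With a minimum of 20 UMIs and with none, 2 and 3 members were higher, beside 993 of 5270 and 3919 of 13984 genes. In T-cell-like nuclei 6 were higher with a minimum of 20 UMIs or none, 0 with at most 10% mitochondrial UMIs and 1 at 2-fold. Genes higher there were 951 of 5585 with a minimum of 20 UMIs, 4074 of 13834 with none and 53 of 788 with at most 10%. No member (0) was lower there with either other gate, at most 10% mitochondrial UMIs, thinning, without the top 1% of nuclei or at 2-fold. Genes lower there were 87 of 1216 with the stricter and 93 of 1391 with the looser gate. With at most 10% mitochondrial UMIs 99 of 788 genes were lower, and after thinning 2804 of 11029. The median of the members there was 0.18 with at most 10% mitochondrial UMIs. Hspe1 in T-cell-like nuclei changed sign to 0.23 after thinning. The median accessibility ratio at member starts in tumour nuclei was 0.019 with binarised counts, against -0.05 with counts. The causes of these shifts were not tested. Small numbers of NK-like and T-cell-like nuclei limit the counts there.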
